A study of Mus musculus with 8 samples.

Results

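Hemoglobin is built from α-like and β-like globin chains, and the genes that encode them are exchanged as the embryo grows. The 10 genes described here are the embryonic globins Hba-x, Hbb-bh1 and Hbb-y, the adult globins Hbb-bs, Hbb-bt, Hba-a1 and Hba-a2, and Bcl11a, Zbtb7a and Lin28b, which regulate the exchange. They were taken by symbol from a table of 52636 gene identifiers, and all 10 passed the filter on low counts that left 17378 genes. RNAseq was done on S0 cells, the lineage-negative fraction of the fetal liver without CD71 and Ter119 on the surface, which is the earliest erythroid fraction of this sort. The cells came from C57BL/6J embryos at E12.5, with 4 wild-type (WT) libraries and 4 libraries of Vps13a/Vps13c double knockout (DKO) embryos. Both genes were inactivated throughout the body, Vps13a by removal of one exon with a ubiquitous Cre, and DKO embryos die at midgestation. The labels call the controls wild type. In the cross described for the flow cytometry all littermates lacked Vps13c. The paper compared these littermates with WT embryos of the same stage, and calls the S0 cells for RNAseq WT and DKO. The sources do not say from which cross the RNAseq controls came, nor that each library is 1 embryo. If libraries of a group share an embryo or a pool, the p-values below measure only the spread between libraries.

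The first red cells of the mouse arise in the yolk sac and make embryonic chains, ζ from Hba-x and the β-like chains βH1 and εy from Hbb-bh1 and Hbb-y. Within this primitive lineage the cells themselves switch as they mature, from Hbb-bh1 to Hbb-y and from Hba-x to the adult α genes. Definitive red cells arise later in the fetal liver and make mostly adult chains. BCL11A and ZBTB7A (also called LRF) are zinc finger proteins that silence embryonic and fetal globin genes through the NuRD corepressor complex. LIN28B is an RNA-binding protein of fetal blood cells that blocks the maturation of let-7 microRNAs and is known to favor the fetal program.

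The β-like genes lie on the minus strand of chromosome 7 of GRCm38, in the order Hbb-y (chr7:103851749-103853216), Hbb-bh1 (chr7:103841637-103843164), Hbb-bs (chr7:103826534-103828096) and Hbb-bt (chr7:103812524-103813996) from 5′ to 3′. The α-like genes lie on the plus strand of chromosome 11, in the order Hba-x (chr11:32276400-32278116), Hba-a1 (chr11:32283511-32284465) and Hba-a2 (chr11:32296489-32297298). Bcl11a (chr11:24078056-24174123) is on the same chromosome, and Zbtb7a (chr10:81135220-81152995) and Lin28b (chr10:45376620-45486395) are on chromosome 10. How far a read can be assigned to one globin depends on how the coding sequences differ. Their first 60 coding bases, from GENCODE transcripts of GRCm38, are shown for that reason, with capitals where Hba-x differs from Hba-a1 and where Hbb-bh1 or Hbb-y differs from Hbb-bs.
Hba-x: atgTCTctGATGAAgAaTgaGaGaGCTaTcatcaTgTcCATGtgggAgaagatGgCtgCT
Hba-a1: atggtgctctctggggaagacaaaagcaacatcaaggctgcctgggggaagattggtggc
Hbb-bh1: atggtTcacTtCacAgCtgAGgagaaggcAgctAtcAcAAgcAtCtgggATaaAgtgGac
Hbb-y: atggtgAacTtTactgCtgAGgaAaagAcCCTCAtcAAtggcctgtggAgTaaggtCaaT
Hbb-bs: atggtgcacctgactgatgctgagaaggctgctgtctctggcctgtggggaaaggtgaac
Of these 60 bases, 28 differ in Hba-x, 18 in Hbb-bh1 and 19 in Hbb-y. Hba-a2 and Hbb-bt start exactly like Hba-a1 and Hbb-bs. Over the whole coding sequence the adult copies differed at 1 of 426 bases (Hba-a1 and Hba-a2) and at 1 of 441 bases (Hbb-bs and Hbb-bt), whereas Hba-x was 61.7% identical to Hba-a1 and Hbb-bh1 was 76.4% identical to Hbb-y. No window of 150 bases, the read length, was shared between an embryonic globin and another globin transcript. Of the windows of Hbb-bs and Hbb-bt, 58.7% and 50.7% were shared between the copies, and of those of Hba-a1 and Hba-a2, 48.4% and 65.7%. Since alignments of low quality had been removed, reads from the shared stretches may be missing from the adult counts. Such a loss would raise, in both genotypes, every embryonic share given below of counts that include adult globins. It would not move the proportions among the embryonic genes.

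The promoters are shown because BCL11A is known to bind TGACCA. RefSeq promoter entries matched 6 of the 7 globins, with none for Hbb-bh1. The 120 bases before the start site (GRCm38.p6) of both matched embryonic genes and of 1 adult gene of each cluster are given below, with capitals for the motif TGACCA and for 4 motifs common in globin promoters, searched on both strands, namely the CCAAT box, the CACCC box of KLF factors, the GATA site and the TATAA box.
Hbb-y (chr7:103853208-103853327, minus strand): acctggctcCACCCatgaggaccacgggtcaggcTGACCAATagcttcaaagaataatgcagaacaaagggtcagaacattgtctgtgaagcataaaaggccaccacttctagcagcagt
Hba-x (chr11:32276480-32276599, plus strand): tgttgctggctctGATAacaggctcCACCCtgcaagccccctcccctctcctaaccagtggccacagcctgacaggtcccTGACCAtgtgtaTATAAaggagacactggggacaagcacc
Hbb-bs (chr7:103827929-103828048, minus strand): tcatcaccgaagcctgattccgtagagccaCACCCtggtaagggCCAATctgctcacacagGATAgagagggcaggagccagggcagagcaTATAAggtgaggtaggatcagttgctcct
Hba-a1 (chr11:32283552-32283671, plus strand): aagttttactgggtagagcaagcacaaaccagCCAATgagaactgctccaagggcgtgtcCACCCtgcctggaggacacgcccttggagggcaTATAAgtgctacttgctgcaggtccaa
TGACCA was found once in Hbb-y, 86 bases before the start and overlapping the CCAAT box, and once in Hba-x, 40 bases before the start. These letters were not in the windows of the 4 adult genes. Of 32851 mouse promoter windows of this length, 5.57% held TGACCA, against 21.3% with CCAAT, 31.7% with CACCC, 29.5% with GATA and 11.8% with TATAA. A match is a description of the sequence and not evidence of binding in these cells.

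Total counts were 42114489 to 50886469 in WT and 36981439 to 42587815 in DKO libraries, and values are given as normalized counts, scaled to a common library size by TMM. Vps13a, the targeted gene whose transcript was lower in every DKO library, had 607 to 1039 normalized counts in DKO and 1825 to 2109 in WT. Vps13c overlapped between the genotypes and does not check the labels. All 4 WT libraries and DKO replicate 3 showed Ddx3y (2516 to 3354 normalized counts) and little Xist (at most 62.3), a male pattern, while DKO replicates 1, 2 and 4 had 18029 to 27043 of Xist, a female one, so sex is nearly confounded with genotype. The 19 measured genes of maturing erythroid cells summed to 57355 to 62206 normalized counts in WT libraries and to 48025 to 76513 in DKO. Car2 was the largest part of this sum (24369 to 25576 in WT and 17438 to 35445 in DKO). Genes with lower counts varied more between WT libraries, such as Alas2 (185 to 866 in WT and 128 to 674 in DKO). By the edgeR adjusted p alone, 3 of the 19 were higher (15.8%, against 10.7% of all genes) and 1 lower (5.26%, against 10.8%). Genes of fetal liver hepatoblasts (Alb, Afp and others) were also high in every library, with a sum of 708714 to 961788 in WT and 213323 to 815883 in DKO. Neutrophil markers summed to 101782 to 132516 in WT and 5333 to 45104 in DKO, lowest in replicate 1, with 3 of 8 genes called lower. Endothelial markers summed to 3445 to 4131 and 2206 to 2852, with 1 of 8 called lower. Neither list overlapped between the genotypes in its sum. The neutrophil sum was mostly Mpo (91281 to 120802 in WT and 3829 to 36256 in DKO). Pecam1 was the largest endothelial gene in WT (1536 to 1896, and 389 to 985 in DKO). Singly, 4 of 8 neutrophil and 2 of 8 endothelial genes had every DKO library below every WT library, as did 14.6% of all genes. The others overlapped, such as S100a8 (6.95 to 102 in WT and 38.9 to 219 in DKO). The part of either list in the globin values was not tested.

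Of the 10 genes, Hba-x and Hbb-bh1 were called higher in DKO and none was called lower, where a call is an edgeR adjusted p under 0.05 with a log2 fold change beyond 1. Among all genes tested, 6.19% were called higher and 2.43% lower. Without the limit on the fold change the same 2 genes passed and none was lower, beside 10.7% higher and 10.8% lower of all genes. For the lower direction, 1 gene (Lin28b) had an unadjusted p under 0.05, and DESeq2 called none lower. Hbb-bh1 was the only one of the 10 with every DKO library above every WT library, a pattern seen in 13.5% of all genes. None had every DKO library below every WT library, which 14.6% of all genes did. In bulk RNA, a larger share of cells that make embryonic globin and more of it per cell cannot be told apart.

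Hba-x, which encodes the embryonic α-like chain, had 1084, 2928, 815 and 1930 normalized counts in WT replicates 1 to 4 and 21881, 1286, 12547 and 7290 in DKO replicates 1 to 4. The genotypes overlapped through DKO replicate 2, which lay among the WT libraries, while the other 3 DKO libraries were above them all. The log2 fold change was 2.67 with a standard error of 0.73 (adjusted p = 0.0293 by edgeR), and the exact permutation test gave p = 0.0857 (two-sided, 70 arrangements, of which 0.0286 is the smallest p possible). Its adjusted p was above 0.05 without WT replicate 1, 3 or 4 and without DKO replicate 1 or 3, at most 0.111, while its log2 fold change was 2.05 to 2.73 in these 5 fits. With all libraries but without the low-count filter it was 2.64 (adjusted p = 0.0918 by edgeR).

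Hbb-bh1, the β-like gene that primitive cells use first, had 714, 1809, 572 and 1181 normalized counts in WT libraries and 12212, 2135, 6032 and 5094 in DKO. Here too DKO replicate 2 was the lowest of its group, just above WT replicate 2, the highest control. The log2 fold change was 2.57 ± 0.53 (standard error, as after all fold changes below, adjusted p = 0.0106 by edgeR, exact permutation p = 0.0286), and it lay between 2.04 and 2.96 with any 1 library left out, with an adjusted p of at most 0.0412. This gene separated the genotypes more evenly than Hba-x, although its mean changed by a similar factor.

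Hbb-y, which follows Hbb-bh1 in maturing primitive cells, had 3454, 9938, 2896 and 6761 normalized counts in WT libraries and 48838.5, 1174, 24122 and 7257 in DKO. The DKO libraries surrounded the WT libraries, with replicates 1 and 3 above, replicate 4 within and replicate 2 below them. Its log2 fold change of 1.82 ± 0.90 did not pass the test (adjusted p = 0.181 by edgeR, exact permutation p = 0.486), except when DKO replicate 2 was left out (2.21, adjusted p = 0.0396 by edgeR). Without DKO replicate 1, the highest library, its log2 fold change was 0.91 (adjusted p = 0.547 by edgeR). The 3 embryonic globins therefore differed most from one another in DKO replicates 2 and 4, in which Hbb-y was not raised but Hbb-bh1 was.

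**Figure D1:**
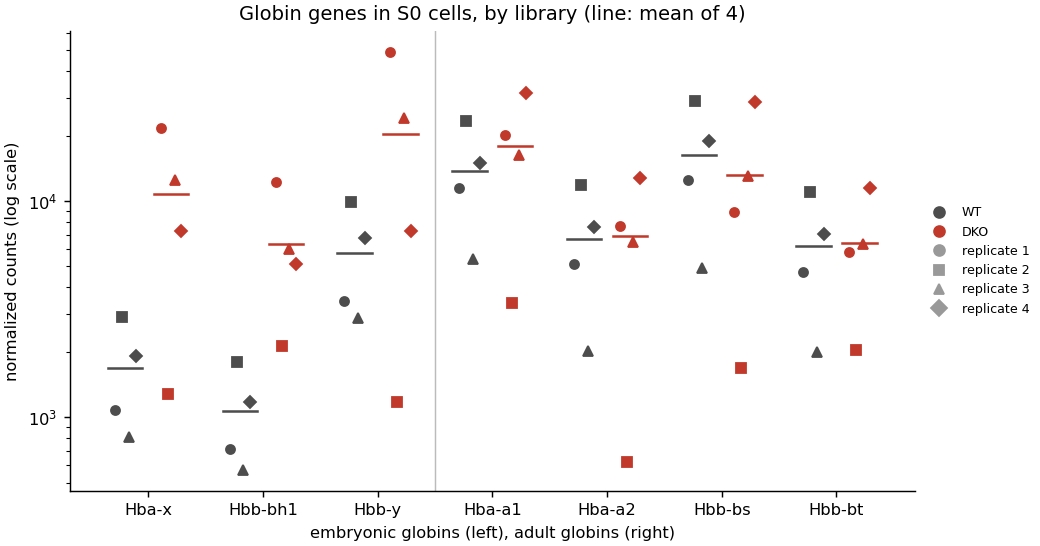
Normalized counts (log scale) of the 3 embryonic and 4 adult globins in each WT and DKO library, with marker shape for replicate number and a line at the mean of 4 libraries. For Hbb-bh1 all DKO libraries lie above the WT libraries (2135 against 1809 at the nearest), whereas the ranges of the adult globins overlap, with DKO replicate 2 below every WT library for Hba-a1, Hba-a2 and Hbb-bs.

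None of the 4 adult globins differed between the genotypes by more than the spread between libraries (edgeR, 0 with an unadjusted p under 0.05, and 0 with DESeq2). Hba-a1 had 11482, 23482, 5390 and 14982 normalized counts in WT libraries and 20303, 3378, 16354 and 31625 in DKO, with a log2 fold change of 0.37 ± 0.59. Hbb-bs had 12539, 28983, 4913 and 19032 in WT and 8949, 1690, 13089 and 28826 in DKO, with a log2 fold change of -0.32 ± 0.72. The ranges overlapped, and for both genes DKO replicate 2 was the lowest of all 8 libraries. Hba-a2 ranged from 2030 to 11918 in WT and from 620 to 12812 in DKO, and Hbb-bt from 2001 to 11037 and from 2046 to 11513. These wide intervals do not show that adult globin was equal: with 1 library left out the log2 fold change of Hbb-bs moved from -1.05 to 0.12. In WT, replicate 2 had the highest and replicate 3 the lowest count of all 7 globins, so the controls ranked alike for every globin.

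The 7 globins were a small part of each library, 0.0887%, 0.209%, 0.0421% and 0.132% of the counts in WT and 0.303%, 0.0274%, 0.188% and 0.235% in DKO. Their composition does not depend on scaling between libraries. Embryonic genes gave 13.4%, 16.3%, 23.0% and 16.9% of the globin counts in WT replicates 1 to 4, and 66.0%, 37.3%, 50.3% and 18.8% in DKO replicates 1 to 4. DKO replicate 4 fell among the controls, and the other 3 DKO libraries lay above all of them. The means were 17.4% ± 4.03 and 43.1% ± 19.99 (SD, n = 4 each), a difference of 25.7 percentage points. No test was made of a share over genes chosen with earlier results known. Wilson 95% intervals of the shares were at most 3.51 percentage points wide and cover counting error only, so the spread between libraries and not depth set the precision.

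The embryonic sum ranged from 4284 to 14675 normalized counts in WT libraries and from 4595 to 82932 in DKO, and the adult sum from 14335 to 75419 and from 7733 to 84776. A high embryonic share thus came with different amounts of RNA. In DKO replicate 1 both the share and the embryonic sum were the highest of all libraries. In DKO replicate 2 the embryonic sum of 4595 lay inside the WT range, and the share of 37.3% went with the lowest adult sum of all 8 libraries. DKO replicate 4 was the opposite case, with an embryonic sum of 19640, above all WT libraries, and the highest adult sum. Among the single genes, Hbb-bs gave 26.4% to 32.5% of the globin counts in WT, and 7.12%, 13.7%, 15.4% and 27.6% in DKO.

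**Figure D2:**
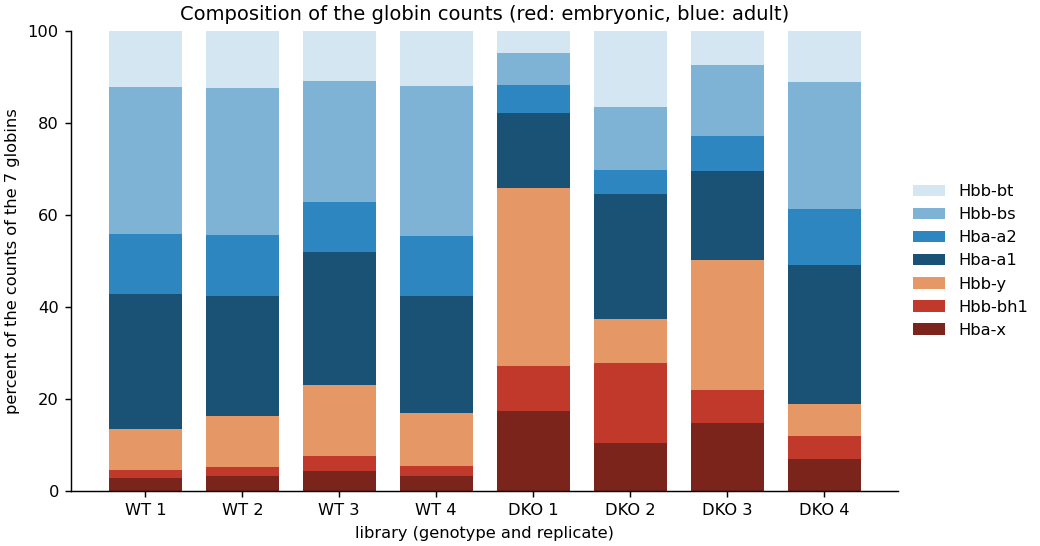
Stacked bars give the percent of the counts of the 7 globins that each gene took in each library, embryonic genes in red shades at the bottom and adult genes in blue shades above. The red part reaches 13.4% to 23.0% in WT libraries and 18.8% to 66.0% in DKO libraries, and its inner makeup differs in DKO replicates 2 and 4.

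The share was examined in each cluster, and only in the α-like one did the genotypes not overlap. Hba-x gave 6.13%, 7.64%, 9.89% and 7.87% of the α-like counts in WT and 43.9%, 24.3%, 35.5% and 14.1% in DKO, every DKO library above every WT library. Hbb-bh1 and Hbb-y together gave 19.5%, 22.7%, 33.4% and 23.4% of the β-like counts in WT and 80.5%, 47.0%, 60.9% and 23.4% in DKO. In this cluster DKO replicate 4 was at the level of the controls. The mean share of α-like genes in all globin counts was similar, 43.5% in WT and 43.4% in DKO. By library it ran from 41.9% to 45.2% in WT and from 39.7% to 49.5% in DKO, where 1 library lay above and 2 below the WT range.

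The proportions among the embryonic genes also set the libraries apart. In WT their proportions were nearly constant although their sum ran from 4284 to 14675 normalized counts, and Hba-x gave 20.6%, 19.95%, 19.0% and 19.6% of the embryonic counts. In DKO it gave 26.4%, 28.0%, 29.4% and 37.1%, with no overlap. Of the counts of Hbb-bh1 and Hbb-y, Hbb-bh1 gave 17.1%, 15.4%, 16.5% and 14.9% in WT and 20.004%, 64.5%, 20.005% and 41.2% in DKO, again with every DKO library above every WT library. As a ratio, Hbb-bh1 was 0.175 to 0.207 of Hbb-y in WT, and 0.250, 1.82, 0.250 and 0.702 of it in DKO. Both genes that primitive cells are known to use earliest thus had a larger part of the embryonic counts in all 4 DKO libraries. Because these shares compare genes within 1 library, scaling between libraries cannot move them. They were chosen after the values were seen and have no test.

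The proportions of the adult copies are less certain, because of the shared stretches. Hbb-bt gave 27.3%, 27.6%, 28.9% and 26.9% of the counts of Hbb-bs and Hbb-bt in WT and 39.5%, 54.8%, 32.5% and 28.5% in DKO. The first 3 DKO libraries were above all controls and replicate 4 was among them. Hba-a2 gave 27.4% to 33.7% of the counts of Hba-a1 and Hba-a2 in WT and 27.5%, 15.5%, 28.4% and 28.8% in DKO, with only DKO replicate 2 outside the WT range.

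**Figure D3:**
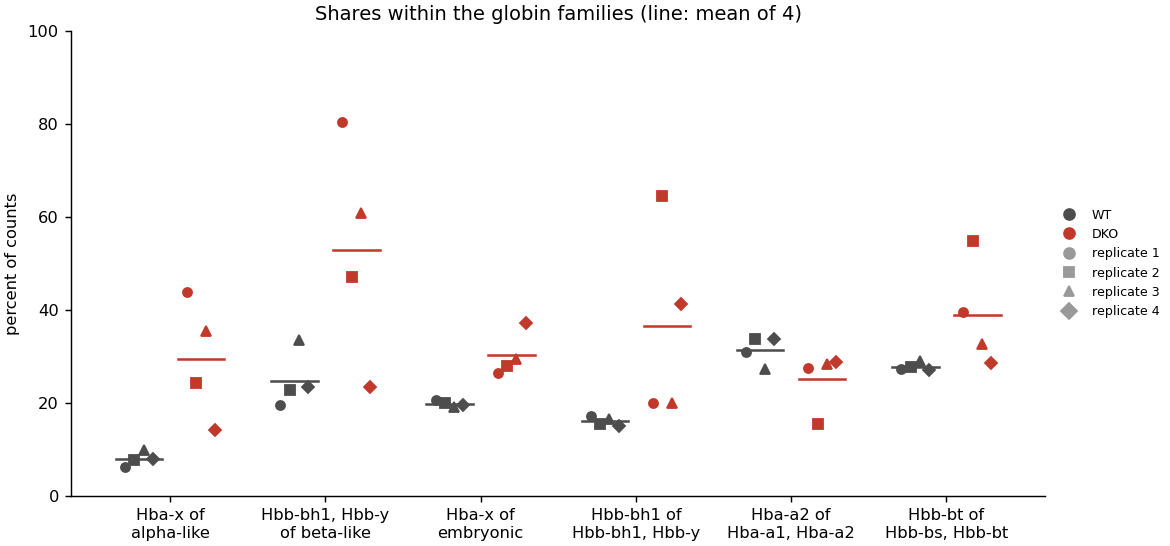
Each point is the percent of counts that the first named genes took of a group of globins in 1 library, with marker shape for replicate number and a line at the mean of 4. WT libraries cluster within 19.0% to 20.6% for Hba-x among the embryonic genes and within 14.9% to 17.1% for Hbb-bh1 beside Hbb-y, and all DKO libraries lie above them.

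Levels of different genes can be compared only per length. The length used joined the exons of all annotated transcripts of a gene, 812 bases for Hba-a1 and 13175 for Bcl11a. The levels depend on this choice. Reads from the stretches shared by the adult copies may be missing, which would lower the places of the adult genes beside the embryonic ones. Per kb of exon and scaled for library size (RPKM), the WT mean was highest for Hbb-bs (485 ± 302, SD, n = 4), followed by Hba-a1 (388 ± 212), Hba-a2 (228 ± 143), Hbb-y (207 ± 117), Hbb-bt (201 ± 124), Hba-x (41.0 ± 23.1) and Hbb-bh1 (39.7 ± 20.7). In DKO the order on the same scale was Hbb-y (732 ± 767), Hba-a1 (502 ± 327), Hbb-bs (390 ± 340), Hba-x (261 ± 212), Hbb-bh1 (237 ± 157), Hba-a2 (236 ± 171) and Hbb-bt (208 ± 126). Neighbors in either order were closer than the larger of their SDs, apart from Hbb-bt and Hba-x in WT. The first place of Hbb-y in DKO came from replicates 1 and 3 (1757 and 868), and Hba-a1 was above it in replicates 2 (94.7 against 42.2) and 4 (887 against 261). Without DKO replicate 1 the DKO means were 480 for Hba-a1, 431 for Hbb-bs and 390 for Hbb-y, and without DKO replicate 4 that of Hbb-bs was 235. Bcl11a (14.1 in WT and 13.9 in DKO), Zbtb7a (13.0 and 14.0) and Lin28b (6.79 and 5.25) were expressed at lower levels per length than any globin.

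The transcripts of the 2 repressors did not differ detectably. Bcl11a had 8257, 8512, 8182 and 7684 normalized counts in WT libraries and 8310, 7402, 8080 and 8286 in DKO. Its log2 fold change was -0.02 ± 0.07 (adjusted p = 0.839 by edgeR, exact permutation p = 0.6), and its sign turned with upper-quartile scaling (0.08), which moved the median of all genes by 0.11. The spread of Bcl11a between libraries was small, with an SD on the log2 scale of 0.06 in WT and 0.08 in DKO, below which lay 7.07% and 3.02% of all genes. Zbtb7a had 4051, 3467, 4362 and 3675 in WT and 3983, 4016, 4718 and 4053 in DKO, and its log2 fold change was 0.11 ± 0.10 (adjusted p = 0.464 by edgeR, exact permutation p = 0.314). These counts measure transcripts and not the proteins that bind the globin genes. BCL11A in particular is known to be regulated also in its translation, including by LIN28B.

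Lin28b had 2898, 2938, 2385 and 2598 normalized counts in WT libraries and 1581, 2597, 2083 and 2101 in DKO. Of the DKO libraries 3 were below all controls, and replicate 2 reached the level of WT replicate 4. The log2 fold change of -0.37 ± 0.15 did not pass the test (adjusted p = 0.0967 by edgeR, exact permutation p = 0.0571), except without DKO replicate 2 (-0.50, adjusted p = 0.0342 by edgeR), where it was still short of the limit of 1. DKO replicate 2, the DKO library with the least Hba-x and Hbb-y, was the one with the most Lin28b. DKO replicate 1, with the most of both globins, had the least Lin28b. In WT the order was the other way. There, replicate 2 had the most Lin28b, Hba-x and Hbb-y (2938, 2928 and 9938) and replicate 3 the least of each (2385, 815 and 2896). The relation between these genes was not tested.

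**Figure D4:**
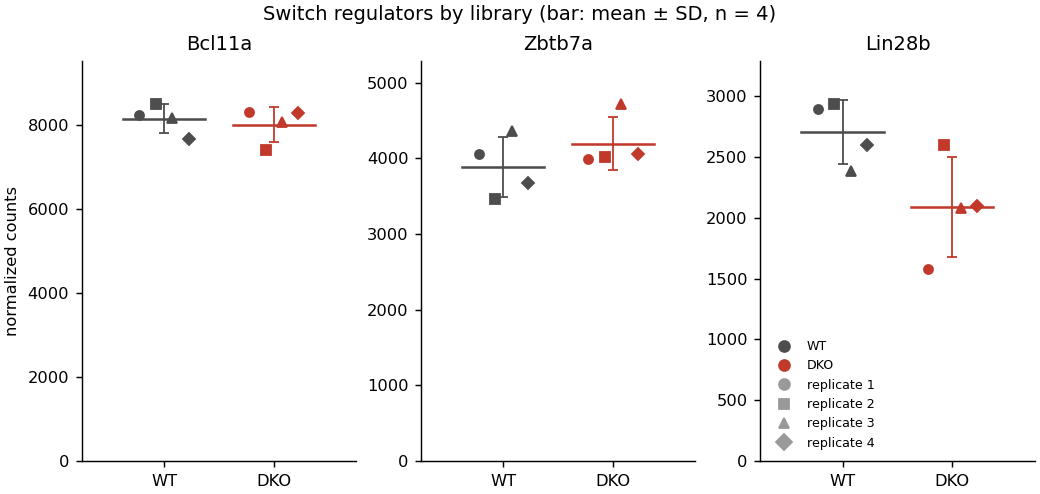
Normalized counts of Bcl11a, Zbtb7a and Lin28b in each library, with the mean and SD of 4 libraries per genotype and axes that start at 0. Bcl11a and Zbtb7a overlap between the genotypes, and 3 of 4 DKO libraries lie below every WT library for Lin28b.

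**Figure D5:**
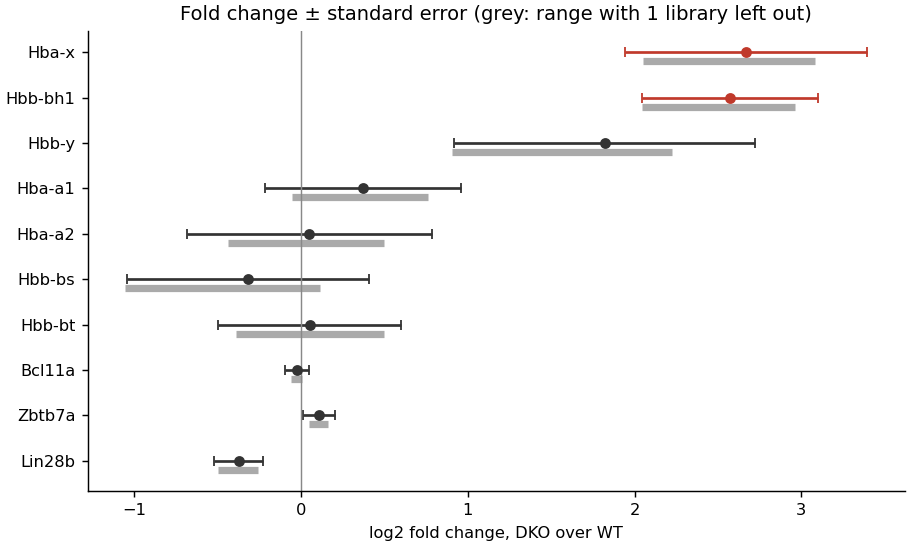
Log2 fold change of DKO over WT with its standard error for the 10 genes, in red where the gene was called, and in grey the range when any 1 of the 8 libraries was left out. Hbb-bh1 stays between 2.04 and 2.96 and Bcl11a between -0.06 and 0.01, while Hbb-bs runs from -1.05 to 0.12.

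The wider machinery of the switch was examined in 7 lists of known regulators, partners and neighbors, with 80 genes tested. Of these, 6 were called higher (7.5%, against 6.19% of all genes) and 0 lower by edgeR (5 and 0 by DESeq2). With the adjusted p alone, 18 were higher (22.5%, against 10.7%) and 11 lower (13.8%, against 10.8%), and 16 had an unadjusted p under 0.05 on the lower side. The median log2 fold change was -0.01, beside 0.03 for all genes tested. Most genes that passed the test in either direction thus stayed short of the fold limit.

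NuRD is the complex of nucleosome remodeling and histone deacetylation through which BCL11A and ZBTB7A act. Of its 14 genes tested, 5 were higher (Chd3, Mta1, Mbd2, Mbd3 and Hdac2) and 3 lower (Mta2, Hdac1 and Rbbp7) by the adjusted p. Chd4, the remodeling subunit needed for γ-globin silencing, had 13778 to 15556 normalized counts in WT libraries and 13221 to 16024 in DKO, with a log2 fold change of 0.00 ± 0.08 (adjusted p = 0.9997 by edgeR). Its relative Chd3 rose from 382 ± 160 to 1556 ± 1188 normalized counts (SD, n = 4 each, log2 fold change 2.03, adjusted p = 0.0196 by edgeR) and was the only called member. DKO replicate 1 had 3333 of Chd3 and the other DKO libraries 901 to 1090, all above the WT maximum of 519. Its log2 fold change fell to 1.34 when this library was left out. Related subunits did not share a direction in every case, with log2 fold changes of 0.60, -0.56 and 0.04 for Mta1, Mta2 and Mta3 and of -0.28 and 0.35 for Hdac1 and Hdac2, but 0.60 and 0.43 for Mbd2 and Mbd3. With 1 library left out, the adjusted p rose above 0.05 for Chd3 (without WT replicate 1 or 2, up to 0.0657), Hdac1 (WT replicate 1, 3 or 4, up to 0.0689), Hdac2 (WT replicate 1, 2 or 4, up to 0.0970), Mbd3 (WT replicate 1, 2 or 4 or DKO replicate 4, up to 0.0799), Mta1 (WT replicate 1, 2 or 4 or DKO replicate 2 or 4, where p was at most 0.0804) and Mbd2 (any but WT replicate 3 or DKO replicate 1, up to 0.105). Mta2 and Rbbp7 passed in all 8 such fits.

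Among 23 other factors known to act on the switch, 5 were higher (Nr2f2, Nfia, Nfix, Klf3 and Ehmt2) and 4 lower (Dnmt1, Ikzf1, Myb and Spop) by the adjusted p. NFIA and NFIX are known to repress γ-globin, and Nfia had 235, 274, 467 and 289 normalized counts in WT libraries and 3258, 814, 1249 and 1299 in DKO. All DKO libraries were above all controls (log2 fold change 2.39, adjusted p = 0.00632 by edgeR), and Nfix changed by 0.59 (adjusted p = 0.0412 by edgeR). Nr2f2, which encodes COUP-TFII, had 236, 279, 436 and 304 in WT and 7263, 1038, 1157 and 992 in DKO (log2 fold change 3.06, adjusted p = 0.0142 by edgeR). The excess was largest in DKO replicate 1, and the log2 fold change was 1.76 without it. Nr2f2 is also known as a gene of mesenchymal cells. Of 8 mesenchyme markers such as Col1a1 and Pdgfra, 7 were called higher, with a summed level of 2044 to 5760 normalized counts in WT libraries and 12826 to 44397 in DKO, of which the highest was DKO replicate 1. Their part in the levels of Nr2f2, Nfia and Chd3 was not tested. Nr2f2 did not pass without WT replicate 1 or 4 (up to 0.0542), and Nfix passed only without WT replicate 3 or DKO replicate 1 (otherwise up to 0.120).

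Myb, whose product keeps progenitors dividing and restrains fetal globin, fell by 0.54 on the log2 scale (adjusted p = 0.0255 by edgeR). Dnmt1, which maintains DNA methylation at silenced globin promoters, fell by 0.66 (adjusted p = 0.00357 by edgeR), from 11641 to 13646 normalized counts in WT to 7037 to 9007 in DKO. Ikzf1, the gene of the lymphoid and erythroid factor Ikaros, fell by 0.62 (adjusted p = 0.0137 by edgeR), and Spop, a ubiquitin ligase adaptor, by 0.38 (adjusted p = 0.0183 by edgeR). Dnmt1 and Ikzf1 passed whichever library was left out, while Myb did not when any 1 WT library or DKO replicate 4 was left out (up to 0.0783), nor Spop without WT replicate 1 or 4 (up to 0.0562). Klf3 rose by 0.54 and Ehmt2, a histone methyltransferase gene, by 0.40, and Klf3 did not pass when any 1 WT library or DKO replicate 4 was left out (up to 0.0749). Klf1, the activator of adult β-globin and of Bcl11a, and Sox6, a partner of BCL11A, had log2 fold changes of 0.06 and 0.44 and did not pass the test. Progenitor markers such as Kit and Cd34 were lower beside Myb and Ikzf1, with 6 of 10 called lower and sums of 43653 to 58806 normalized counts in WT libraries and 19697 to 29045 in DKO, and their part in these 2 genes was not tested.

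The axis of LIN28 and let-7 was represented by 11 further genes. Igf2bp3, a let-7 target and fetal RNA-binding protein, had 7423, 7854, 6706 and 7426 normalized counts in WT libraries and 5838, 5294, 4661 and 5355 in DKO. The genotypes did not overlap, and the decrease of 0.48 on the log2 scale passed the test (adjusted p = 0.00751 by edgeR). It was the only gene of this list to do so, with 3 lower at an unadjusted p under 0.05 and a median log2 fold change of -0.15. Igf2bp1 was at 17547 to 18319 in WT and 14800 to 18553 in DKO (log2 fold change -0.15). Hmga2 was at 7993 to 9772 in WT and at 12705, 7731, 5318 and 5636 in DKO, with a log2 fold change of -0.15. DKO replicate 1 was the only one above the controls, and without it the log2 fold change was -0.48 (adjusted p = 0.0330 by edgeR).

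Factors of the globin enhancers were not called in either direction by edgeR or DESeq2, but 5 of 14 were higher (Ldb1, Lmo2, Tcf3, Mafg and Zfpm1) and 2 lower (Mafk and Cbfa2t3) by the adjusted p. Zfpm1, which encodes the GATA1 cofactor FOG1, had 1707, 1637, 1776 and 1591 normalized counts in WT libraries and 3395, 2947, 3354 and 3535 in DKO, and its log2 fold change was 0.98 ± 0.09 (adjusted p = 0.000389 by edgeR), just short of the limit. Tcf3 and Mafg changed by 0.48 and 0.49, and Mafk and Cbfa2t3 by -0.61 and -0.35. Of these 7 genes, Mafg did not pass without WT replicate 1 or 4 (up to 0.0628) and Mafk did not when any 1 WT library or DKO replicate 2 was left out (up to 0.104). A further list held 9 genes for the flanks of the α-globin cluster. Of these, Fam234a and Luc7l (chromosome 17) and Polr3k (chromosome 2) do not lie beside it in the mouse. Nprl3, whose introns hold the α-globin enhancers, had a log2 fold change of 0.14 (adjusted p = 0.526 by edgeR). Rhbdf1 was the one neighbor called higher, at 159 to 202 in the WT libraries and 652, 395, 212 and 385 in DKO (log2 fold change 1.21, adjusted p = 0.0261 by edgeR), and its adjusted p was up to 0.0764 without WT replicate 1, 2 or 4.

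Genes that balance globin with heme supply were also measured, in a list with 6 genes tested. Of these, 2 were called higher (33.3%, against 6.19% of all genes) and 1 was lower by the adjusted p alone. The other 3, Eif2s1, Hp and Hpx, did not pass, with log2 fold changes of -0.06, -1.66 and -0.30. Eif2ak1, the gene of the heme-regulated kinase HRI that stops globin translation when heme is scarce, fell by 0.46 on the log2 scale (adjusted p = 0.0121 by edgeR). Atf4, the factor translated when that pathway is active, had 4126 to 5283 normalized counts in WT libraries and 7532 to 12276 in DKO (log2 fold change 1.08, adjusted p = 0.00346 by edgeR). Ppp1r15a, the ATF4 pathway gene of the phosphatase subunit GADD34, had 1874 to 2214 and 2996 to 8772 (log2 fold change 1.19, adjusted p = 0.0253 by edgeR). Its log2 fold change was 0.71 without DKO replicate 4, the highest library, and its adjusted p was above 0.05 when any 1 WT library was left out, at most 0.0727. These values count transcripts and do not measure translation, and the activity of the HRI pathway was not tested. Of the globin-family genes outside the 10, Hbb-bh0, Cygb and Hbq1b could be tested and none passed by edgeR (2 higher at an unadjusted p under 0.05, 0 by DESeq2). Hbb-bh0, a pseudogene between Hbb-y and Hbb-bh1, had 2.09, 10.3, 2.61 and 10.5 normalized counts in WT libraries and 41.0, 5.81, 17.1 and 25.1 in DKO, and its log2 fold change was 1.78 (adjusted p = 0.138 by edgeR).

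The genes whose pattern over the 8 libraries was nearest were found by the mean absolute difference of centred log2 values among 13763 genes. For Hba-x the nearest gene was Hbb-bh1, on another chromosome, at a mean difference of 0.32, followed by Adamts17 (0.51) and Lrch2 (0.52). Hbb-bh1 was nearest to Loxl3 (0.31), a lysyl oxidase gene of connective tissue, then to Hba-x (0.32) and Gm26670 (0.35). Hbb-y had no close match, with Slc9a5 (0.50), Adamts17 (0.59) and Hba-x (0.65) nearest. Among the adult genes, Hbb-bt was nearest to Alas2 (0.19), the first enzyme of erythroid heme synthesis, Hba-a1 (0.23) and Ltb4r2 (0.32). Hba-a1 was nearest to Hbb-bt (0.23), Alas2 (0.24) and Hba-a2 (0.28), and Hbb-bs to Hba-a2 (0.26), Trim10 (0.27) and Lyve1 (0.39), a gene of endothelial cells. Genotype, sex pattern and cell makeup vary together over these libraries, so these likenesses are a description.

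The values of other red cell genes were mixed. Slc4a1, which encodes the band 3 membrane protein of maturing red cells, was at 10.5 normalized counts in DKO replicate 2, against 799 to 1465 in the other DKO libraries and 308 to 1515 in WT, and that replicate also had the least adult globin. The water channel genes Aqp3 and Aqp8, known from primitive red cells, had log2 fold changes of 0.96 and 0.01 and did not pass the test (adjusted p = 0.266 and 0.992 by edgeR). DKO replicate 3, the one with the male pattern, had 6032 of Hbb-bh1 and 12547 of Hba-x, both above every WT library. The summed mesenchyme markers were 44397, 12826, 14319 and 21332 normalized counts in DKO replicates 1 to 4. DKO replicate 1 thus had the most of them and of all 3 embryonic globins. DKO replicate 4 had more of these markers than replicate 3 but a lower embryonic sum (19640 against 42702). The part of cell makeup and sex in the embryonic globin levels was not tested.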

How the data were processed

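Libraries were made by the authors from low RNA input by template switching and sequenced in pairs of 150 bases. Reads were trimmed with fastp 0.21.0 and mapped to mm10 with HISAT2 2.2.1, alignments with a quality score under 20 were removed, and genes were counted with StringTie 1.3.3b and prepDE. The deposited values are these whole-number counts per gene, not normalized. Strand use in counting is not given in the sources used here.

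Symbols came from GENCODE annotation of GRCm38 (52403 of 52636 identifiers matched without version). In R 4.3.3, edgeR 4.0.16 was run with filterByExpr, TMM, robust quasi-likelihood tests of WT against DKO and Benjamini-Hochberg adjustment over 17378 genes. Log2 CPM with a prior count of 2 was compared by exact two-sided permutation. Patterns were compared among genes with a mean of at least 50 normalized counts. Alternatives included DESeq2 1.42.0, other scalings and filters, a replicate block and each library left out, which for levels per kb was added after the data were seen. The fit was tested on simulated counts. Libraries of a genotype differed by more than counting error, so none was a copy. The members, gene lists and tests were chosen with earlier results of these data known. The named genes were the 10 members, every list gene with an adjusted p under 0.05, known partners of the members, and the 3 nearest patterns, of which a few are printed. Hbb-bh0, Cygb, Hbq1b, the markers Slc4a1, Aqp3 and Aqp8, and the sex genes were named after their values were seen.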

Additional observations from a re-analysis of the deposited data

Results flagged for a closer look

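A library apart from the others was sought in 128 groups of 4 libraries, each of 1 genotype. They covered the 10 members, Vps13a, Vps13c, the list genes that passed, known partners, and the globin shares, sums and ratios. Other genes named, such as the sex genes, the markers and Hbb-bh0, were not examined. In 8 groups, 1 library was farther from the others than Dixon's 95% limit for the gap over the range allows. Chance flags about 1 in 20 such groups. Among the 10 members and their shares, these were Zbtb7a in DKO replicate 3 (4718 normalized counts, above the other DKO libraries) and the share of Hba-a2 among the adult α genes in DKO replicate 2 (15.5%). Among the other regulators, DKO replicate 1 stood apart for Chd3 (3333 normalized counts) and Nr2f2 (7263), DKO replicate 3 for Mta2 (11631), DKO replicate 4 for Mafg (3214), WT replicate 2 for Ikzf1 (6467) and WT replicate 4 for Cbfa2t3 (7813).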

How the results depend on the processing

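Of the 10 genes, 2 were called, and 1 without the low-count filter, 0 with the replicate block and 1 to 3 with each library left out. The replicate numbers did not pair the libraries: same-numbered WT and DKO libraries had correlations of deviations of -0.10, 0.05, -0.03 and -0.01, and no library matched its own number best. With the block, 613 genes were called higher and the adjusted p was 0.0529 for Hbb-bh1 and 0.153 for Hba-x. DESeq2 called 1651 genes higher, and the adjusted p alone gave 1867 higher, 1878 lower and 29 of the pathway list genes. Leaving out 1 library gave 566 to 1148 genes higher, 243 to 521 lower and 2 to 7 list genes. The embryonic share differed by 18.1 to 33.8 percentage points with each library left out and by 21.6 to 31.4 in the other settings. Changes of sign, none of them in a fit that gene passed, occurred in Bcl11a with upper-quartile scaling (0.083) and Chd4 without the filter (-0.025), with the block (-0.0020) and with DESeq2 (-0.010), and with 1 library left out in Hba-a1 (-0.054 to 0.76), Hba-a2 (-0.44 to 0.50), Hbb-bs (-1.05 to 0.12), Hbb-bt (-0.39 to 0.50), Bcl11a (-0.061 to 0.0071), Chd4 (-0.044 to 0.048), Hmga2 (-0.48 to 0.0026) and Klf1 (-0.12 to 0.17). The causes were not tested. Spread between libraries, not depth, limits the globins; how many reads of the adult copies were lost was not tested.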
